A study of Mus musculus with 11 samples.

Results

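Transcripts of 45 genes that license, fire, copy and seal replicating DNA were followed in mouse bile duct cells during a diet-induced liver injury and after its withdrawal. The members were chosen by their known roles in DNA replication and S phase, with earlier results of these data known. They were matched by gene symbol, and all 45 were found in the deposited table of 43346 genes. They cover origin licensing (11 genes), helicase activation (7 genes), polymerases, clamp and strand joining (13 genes), nucleotide supply (5 genes), and S phase entry, fork protection, chromatin assembly and uracil repair (9 genes). RNA came from liver cells of wildtype male C57BL/6 mice, aged between 14 and 16 weeks, that were held on anti-EpCAM (CD326) magnetic beads and passed over a second column; the labels call them cholangiocytes, the epithelial cells that line bile ducts. The R15 group (3 libraries) had 10 days of DDC diet followed by 15 days back on chow. The DDC group (4 libraries) had 10 days of DDC diet and no recovery, and the Control group (4 libraries) had chow alone. DDC (3,5-diethoxycarbonyl-1,4-dihydrocollidine) is a porphyrin-forming compound that injures small bile ducts and makes duct cells multiply. Polyadenylated RNA was sequenced with a strand-marking kit, and the values are FPKM, reads scaled to the length of the gene and to the reads of the library.

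Before a chromosome is copied, the origin recognition complex with Cdc6 and Cdt1 loads the MCM2-7 ring onto DNA, and Geminin blocks Cdt1 from doing so again within S phase. The kinases Cdc7-Dbf4 and cyclin E-Cdk2 then recruit Cdc45 and the GINS complex, which turn the ring into a working helicase ahead of the polymerases. Many of these genes are transcribed at the G1 to S transition under E2F factors, and NF-Y, which binds CCAAT boxes, is a common partner at cell cycle promoters. Adult cholangiocytes divide rarely and enter the cycle after cholestatic injury.

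The promoters of the members with the largest log2 change of FPKM + 1 in DDC against Control in their role group are shown because they hold, or lack, the letters these factors are known to bind. The windows are from RefSeq (GRCm38.p6), run from 250 bases before to 50 bases after a start site, and are written 5′ to 3′ on the gene's strand. Capitals mark CCAAT and the letters of E2F sites on either strand, which can overlap. The E2F letters searched began with TTCCCGC, read on both strands. The close form TTCGCGC was searched as well, together with its relative TTGCCGC. The remaining form was TTGGCGC. Mcm5 (chr8:75109259-75109558, plus strand), Fen1 (chr19:10204344-10204643, minus strand), Rrm2 (chr12:24708004-24708303, plus strand) and Chaf1a (chr17:56040166-56040465, plus strand) are given. Fen1 has 2 windows in the table, and the one whose start site lies nearest the deposited gene's 5′ end (base 10204169) is printed. That window lies wholly upstream of the deposited gene, while the other window, which begins at base 10203872, contains the 5′ end. The helicase activation gene with the largest change was Gins2. The choice depends on the 1 FPKM added: with 0.1 FPKM added the largest changes were those of Orc1 (3.04), Mcm10 (2.49), Dscc1 (2.43), Tk1 (2.85) and Ccne1 (3.34).
Mcm5: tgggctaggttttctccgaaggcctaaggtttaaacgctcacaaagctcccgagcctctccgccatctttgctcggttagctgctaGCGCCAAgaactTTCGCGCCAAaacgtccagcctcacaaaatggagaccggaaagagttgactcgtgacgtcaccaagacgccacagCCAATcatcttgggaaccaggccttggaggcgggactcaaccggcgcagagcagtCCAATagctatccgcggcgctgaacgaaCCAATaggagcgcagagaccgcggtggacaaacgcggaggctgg
Fen1: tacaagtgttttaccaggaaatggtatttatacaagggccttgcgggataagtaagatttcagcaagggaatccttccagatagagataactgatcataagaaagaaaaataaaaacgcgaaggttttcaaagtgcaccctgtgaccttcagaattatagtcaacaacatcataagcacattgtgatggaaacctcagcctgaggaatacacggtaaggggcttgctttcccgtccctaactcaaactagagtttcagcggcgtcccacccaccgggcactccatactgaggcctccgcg
Rrm2: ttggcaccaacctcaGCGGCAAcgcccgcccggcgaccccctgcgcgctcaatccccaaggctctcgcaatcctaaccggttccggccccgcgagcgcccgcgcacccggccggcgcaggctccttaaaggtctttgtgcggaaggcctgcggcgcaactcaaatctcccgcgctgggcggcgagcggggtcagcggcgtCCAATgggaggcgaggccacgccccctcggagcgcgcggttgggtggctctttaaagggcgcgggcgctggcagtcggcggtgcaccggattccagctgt
Chaf1a: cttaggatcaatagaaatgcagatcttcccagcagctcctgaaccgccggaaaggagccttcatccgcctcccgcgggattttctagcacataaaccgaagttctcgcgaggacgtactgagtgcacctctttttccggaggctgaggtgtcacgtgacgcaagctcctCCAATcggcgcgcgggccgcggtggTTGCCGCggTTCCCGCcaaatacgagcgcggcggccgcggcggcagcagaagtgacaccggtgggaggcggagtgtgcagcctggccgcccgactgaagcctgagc

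The Mcm5 window held 3 CCAAT boxes and 3 E2F matches, an overlapping pair among them, while the Rrm2 window held 1 CCAAT box and 1 E2F match. The Chaf1a window held 1 CCAAT box and 2 E2F matches, and the printed Fen1 window held neither, while the other Fen1 window held 1 E2F match. The table had windows for 36 of the 45 members, 41 windows in all, and none is given for Dscc1, Pole, Gins2, Gmnn, Ccne2, Tipin, Gins1, Rfc2 and Mcm4. E2F letters stood in 61.0% of the members' windows, against 48.9% of the windows of 40 other replication genes, 16.1% of the windows of genes tested and 9.57% of all windows in the table. CCAAT stood in 51.2% of the members' windows, against 48.9%, 37.3% and 37.4% of the same sets. Both kinds stood in 36.6% of the members' windows, against 22.2%, 6.21% and 3.66%. The CHR element TTTGAA, found in promoters of genes that peak later in the cycle, was in 17.1% of the members' windows, against 13.3%, 12.1% and 17.9%. Windows with both kinds belonged to 14 members (Orc1, Mcm3, Mcm5, Mcm6, Mcm7, Gins3, Pola1, Prim1, Rfc3, Rrm1, Rrm2, Dtl, Clspn and Chaf1a). Neither kind was in the windows of 8 members (Dbf4, Pola2, Rfc5, Tyms, Tk1, Dut, Ccne1 and Ung). Of 37 CCAAT boxes in the members' windows, 16 lay between 100 and 40 bases before the start. The median log2 change in DDC against Control was 1.28 in the 22 members with E2F letters and 1.10 in the 14 without, and 1.26 in the 20 with CCAAT and 1.22 in the 16 without. A match of letters is a description of the window and does not show binding.

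**Figure D1:**
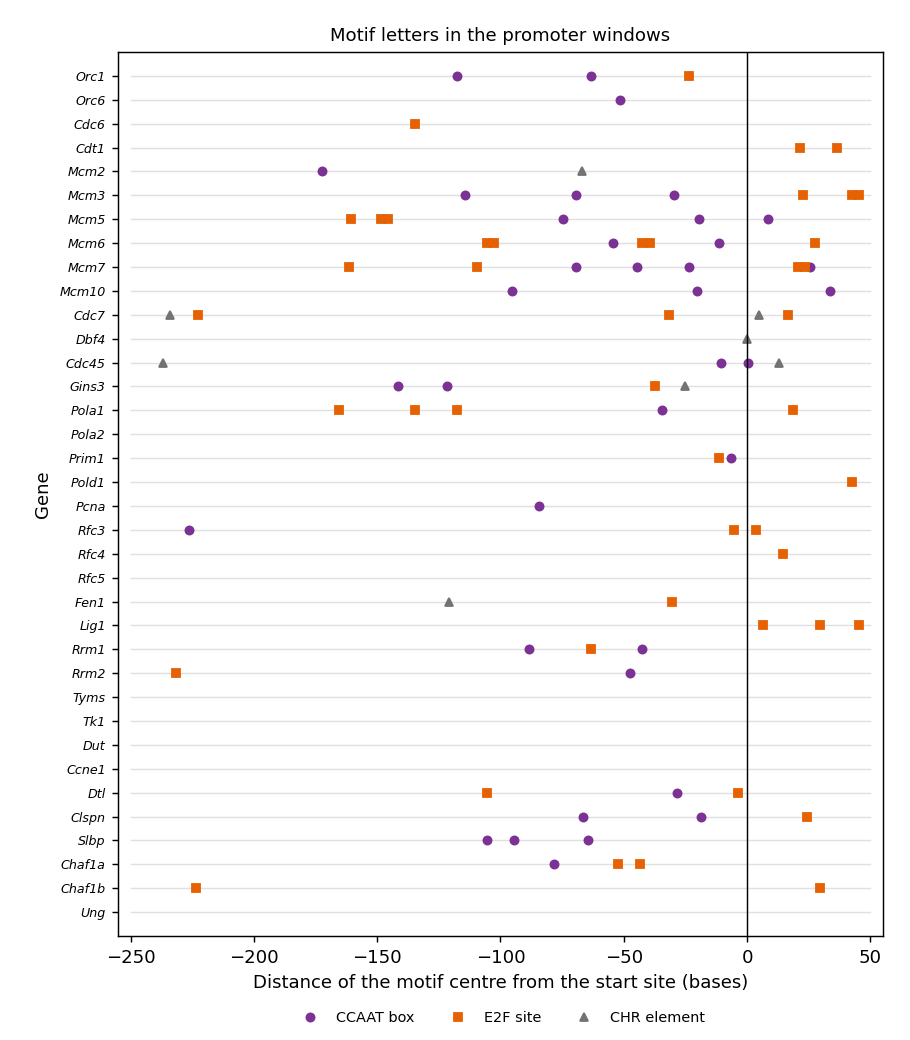
Distance in bases of each motif's centre from the start site for the 36 members with a promoter window, with 1 symbol per match (circle, CCAAT box; square, E2F letters; triangle, CHR element). Lines with no circle or square are the 8 members with neither CCAAT nor E2F letters, and several windows of 1 gene share a line.

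Whole reads recovered from the FPKM values gave 49339240 to 72929107 reads per library. Cholangiocyte markers were high in all groups, with the summed FPKM of 9 genes at 8700 to 9737 in R15, 9918 to 11075 in DDC and 8012 to 10983 in Control. Pancreatic acinar transcripts stood out in Control 1, 2 and 3, DDC 1 and R15 3, and gastric mucous transcripts summed to 9143 FPKM in Control 3. Leaving out the 5 libraries with pancreatic transcripts, a choice made after seeing the data, left 1 Control library, assumed to vary like the other groups. The members' median log2 change was then 1.309 in DDC against Control and -1.145 in R15 against DDC. Over all genes tested in that fit the medians were 0.0173 and 0.0294. In R15 against Control the median was 0.138 over the members and 0.0502 over all genes. Calls from this fit are not counted, since 1 Control library has no spread of its own. The labels do not say that each library came from its own mouse, so p-values measure the spread between these libraries.

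Every one of the 45 transcripts was higher in DDC than in Control. The change was past the threshold (limma, adjusted p under 0.05 over all 15264 genes tested) for 45 of 45 members, against a background of 33.5% of genes called higher. The lowest DDC library was above the highest Control library for 45 of 45 members, which was so for 31.5% of genes. With a log2 change of at least 1, 32 of 45 members were called, against 7.87% of genes. The median log2 change of FPKM + 1 was 1.24 over the members and 0.00 over all genes tested, with a range from 0.29 (Slbp) to 2.45 (Mcm5). The members' median was 0.60 with 5 FPKM added and 1.65 by limma voom. The 45 genes together took 0.0768% to 0.0839% of the reads in R15 libraries, 0.186% to 0.206% in DDC libraries and 0.0650% to 0.0834% in Control libraries. In RNA of pooled cells, fewer cells of a type and less RNA per cell cannot be told apart.

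Of the 45 members, 34 reached the minimum level (FPKM of at least 1 in 3 libraries) without counting DDC libraries, and 11 reached it only through them. Those 11 were Orc1, Cdc6, Mcm10, Cdc7, Dbf4, Dscc1, Tk1, Ccne1, Ccne2, Dtl and Clspn, and passing in that way favours a gene that is higher in DDC. Their Control means lay between 0.111 and 0.726 FPKM, and their ratios of mean FPKM (DDC over Control) between 4.78 and 14.4. The other 34 had Control means between 1.13 and 29.7 FPKM and ratios between 1.24 and 6.93. With the filter set on Control and R15 libraries alone, a choice made after seeing the data, 34 members were tested. Of these, 34 were called higher in DDC than in Control, against 4519 of all 14528 genes tested in that way. In R15 against DDC 34 were called lower, against 3848 of the 14528.

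**Figure D2:**
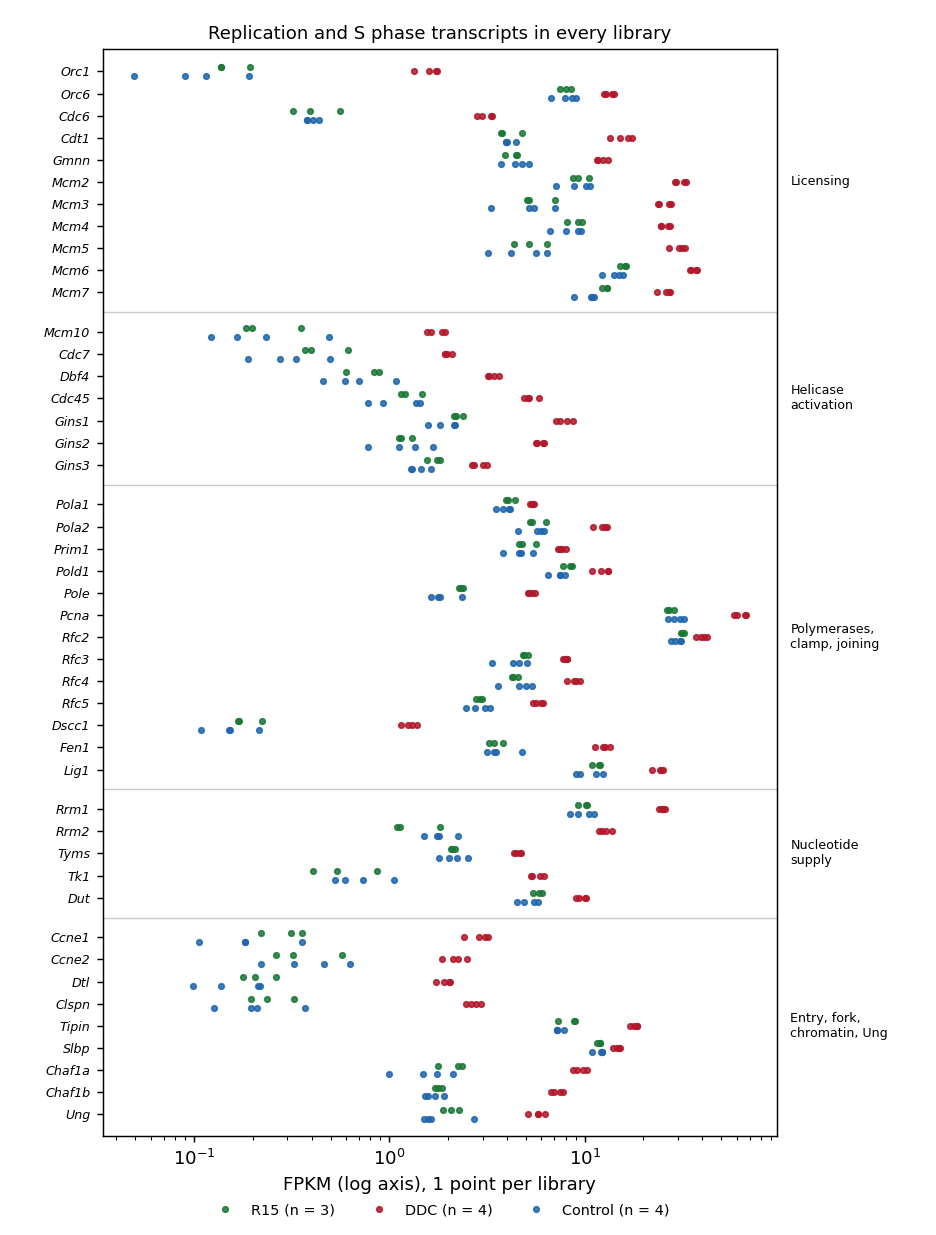
FPKM on a log axis for the 45 members, grouped by role, with 1 point per library (green, R15, n = 3; red, DDC, n = 4; blue, Control, n = 4). The red points lie to the right of all green and blue points on every line, while green and blue points mix on 44 of 45 lines.

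Markers of other cells moved with the DDC group. The summed FPKM of 9 macrophage markers was 139 to 702 in R15, 1346 to 2402 in DDC and 121 to 145 in Control, and 8 of the 9 were called higher in DDC than in Control. The sum of 5 neutrophil markers was 2.60 to 9.83 in R15, 41.1 to 69.0 in DDC and 1.31 to 3.87 in Control, while Ly6g was at 0 in all R15 and Control libraries and in 3 of 4 DDC libraries. The sum of 5 endothelial markers was 30.3 to 106 in R15, 6.84 to 20.7 in DDC and 42.8 to 191 in Control. Hepatocyte markers (7 genes) summed to 1746 to 2406 in R15, 1019 to 1544 in DDC and 2885 to 3575 in Control, mostly Alb and Ttr. Of the 7, 4 were called lower in DDC than in Control and 3 were not called. In R15 against Control Serpina1a and Tat were called higher and Alb and Ttr lower. The sum of 6 B and plasma cell markers was 38.4 to 173 in R15, 11.6 to 23.0 in DDC and 41.3 to 89.7 in Control. Of the 4 tested, 3 were called lower in DDC than in Control. The part of these other cells in the members' changes was not tested. The proliferation markers Mki67, Top2a, Cdk1 and Ccnb1 were all called higher in DDC than in Control, with a median log2 change of 2.59.

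Licensing genes were called higher in DDC than in Control in 11 of 11 cases, against 33.5% of all genes tested. Among the 11, Orc1 and Cdc6 passed the filter only through DDC libraries. The median log2 change was 1.53, with ratios of mean FPKM between 1.66 and 14.4. The order of the roles depends on the 1 FPKM added: with 0.1 FPKM added the median was 1.76 for licensing, 2.17 for helicase activation and 2.22 for the role that holds the cyclin E genes. Mcm5 (ENSMUSG00000005410, mm10 chromosome 8, 75109528 to 75128439), a subunit of the MCM2-7 ring, had 5.19, 6.42 and 4.36 FPKM in R15, 27.1, 30.4, 32.5 and 31.6 FPKM in DDC and 3.20, 5.66, 6.40 and 4.18 FPKM in Control. All DDC libraries were several times above all others, and R15 and Control overlapped. The log2 change of Mcm5 was 2.45 ± 0.17 (SE; limma adjusted p = 1.3e-06) in DDC against Control and -2.32 ± 0.18 (adjusted p = 6.3e-06) in R15 against DDC.

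Mcm3 (ENSMUSG00000041859, mm10 chromosome 1, 20802968 to 20820312) followed it closely. The values of Mcm3 were 5.09, 7.09 and 5.17 FPKM in R15, 23.6, 24.0, 27.6 and 27.0 FPKM in DDC and 3.33, 5.50, 7.08 and 5.19 FPKM in Control. DDC stood apart and the other 2 groups overlapped, with Control 1 the lowest library. Its log2 change was 2.11 ± 0.17 in DDC against Control and -1.98 ± 0.18 in R15 against DDC (limma adjusted p = 3.3e-06 and 1.5e-05). Mcm2 had 9.27, 10.5 and 8.73 FPKM in R15, 28.8, 29.3, 33.0 and 32.4 FPKM in DDC and 7.10, 10.1, 10.6 and 8.78 FPKM in Control. Mcm4 had 9.20, 9.74 and 8.16 FPKM in R15, 24.4, 24.6, 27.3 and 26.8 FPKM in DDC and 6.62, 9.55, 9.25 and 8.01 FPKM in Control. For both, DDC libraries lay above all others and R15 lay within or close to the Control range. Mcm6, the most abundant of the 6 subunits in every library, had 16.2, 16.1 and 15.2 FPKM in R15, 34.4, 35.2, 37.8 and 37.0 FPKM in DDC and 12.3, 15.7, 15.1 and 14.1 FPKM in Control. Mcm7 had 13.1, 13.1 and 12.2 FPKM in R15, 23.3, 25.9, 27.4 and 26.9 FPKM in DDC and 8.79, 11.1, 10.9 and 10.8 FPKM in Control. Mcm7 was the 1 member whose R15 libraries all lay above all Control libraries. Log2 changes in DDC against Control were 1.66 ± 0.11 for Mcm2, 1.53 ± 0.10 for Mcm4, 1.28 ± 0.07 for Mcm6 and 1.24 ± 0.07 for Mcm7 (SE; limma adjusted p between 3.0e-07 and 9.8e-07).

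The 6 subunits form 1 ring with a single copy of each, and their transcripts were closer to each other in DDC than in the other groups. The most abundant subunit's FPKM divided by the least abundant subunit's was 3.19, 2.50 and 3.49 in R15, 1.48, 1.47, 1.38 and 1.38 in DDC, and 3.85, 2.85, 2.35 and 3.38 in Control. The 4 DDC libraries lay below all R15 and Control libraries, which overlapped. Mcm6 was the highest subunit in all 11 libraries, and Mcm3 or Mcm5 was the lowest in the R15 and Control libraries. This ratio was chosen after the values were seen and has no test. By comparison, the 4 clamp loader subunits Rfc2 to Rfc5 had group means 10.9 times apart in R15, 6.87 times in DDC and 10.3 times in Control. Over all members the highest and lowest group means were 203 times apart in R15, 49.5 times in DDC and 267 times in Control. A narrower span in DDC was therefore not particular to the ring.

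**Figure D3:**
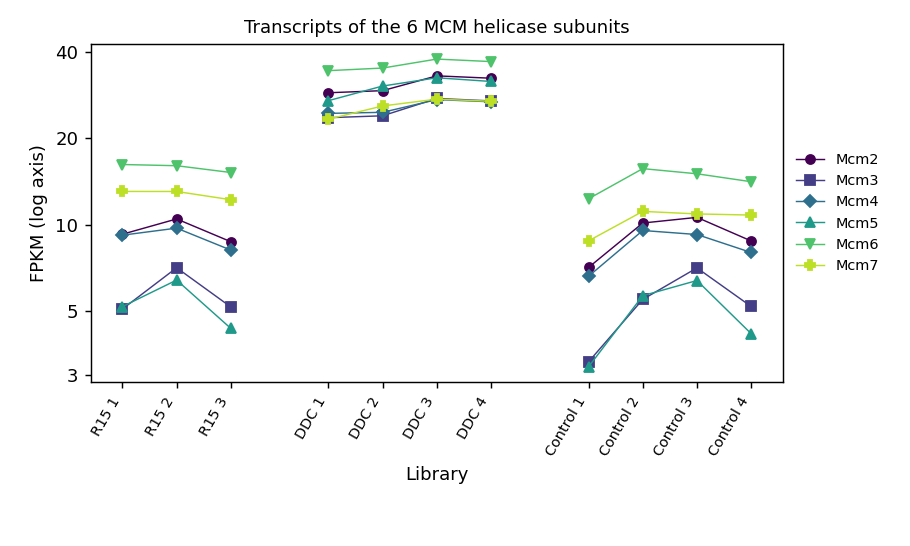
FPKM on a log axis of the 6 MCM2-7 subunits in each library, with lines joining the libraries of 1 group for 1 gene. The subunits span a factor of 2.50 to 3.49 in R15 libraries, 1.38 to 1.48 in DDC libraries and 2.35 to 3.85 in Control libraries.

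Among the loaders of the ring, Orc1 and Cdc6 were the least abundant licensing genes in every group. Orc1, the origin recognition subunit that comes and goes with the cycle in mammalian cells, had 0.137, 0.194 and 0.138 FPKM in R15, 1.75, 1.34, 1.72 and 1.59 FPKM in DDC and 0.0490, 0.0896, 0.191 and 0.116 FPKM in Control. DDC libraries stood far above the rest, and R15 and Control overlapped at levels resting on few reads, as few as 12 in a Control library. The ratio of mean FPKM was 14.4, the highest of the 45, while the log2 change of FPKM + 1 was 1.22 ± 0.08 (limma adjusted p = 9.0e-07), since adding 1 compresses low values. Orc6, the smallest subunit of the same complex, had 8.53, 7.99 and 7.48 FPKM in R15, 12.6, 12.8, 13.8 and 14.2 FPKM in DDC and 6.71, 8.61, 9.04 and 7.91 FPKM in Control. Its groups also separated in DDC, but its log2 change was the smallest of the licensing genes, 0.67 ± 0.08 (adjusted p = 4.9e-05).

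Cdc6, the ATPase that loads MCM2-7 together with ORC, had 0.392, 0.557 and 0.320 FPKM in R15, 2.99, 2.82, 3.30 and 3.35 FPKM in DDC and 0.380, 0.378, 0.434 and 0.407 FPKM in Control. Cdt1, which brings MCM2-7 to the origin, had 3.76, 4.78 and 3.74 FPKM in R15, 15.2, 13.5, 17.5 and 16.7 FPKM in DDC and 3.96, 3.98, 4.46 and 3.94 FPKM in Control. Gmnn, which encodes the Cdt1 inhibitor Geminin, had 3.91, 4.47 and 4.48 FPKM in R15, 11.6, 12.4, 11.7 and 13.2 FPKM in DDC and 4.38, 4.75, 5.18 and 3.74 FPKM in Control. In all 3 the DDC libraries were above every other library and R15 and Control overlapped. Their log2 changes in DDC against Control were 1.55 ± 0.07 (Cdc6), 1.71 ± 0.09 (Cdt1) and 1.27 ± 0.08 (Gmnn), with limma adjusted p of 2.1e-07, 3.2e-07 and 9.6e-07.

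Helicase activation genes were called higher in DDC than in Control in 7 of 7 cases, against 33.5% of all genes tested. Among the 7, Mcm10, Cdc7 and Dbf4 passed the filter only through DDC libraries. The median log2 change was 1.37, with ratios of mean FPKM between 2.03 and 6.91. Gins2, a subunit of the GINS complex of the active helicase, had 1.31, 1.12 and 1.14 FPKM in R15, 5.62, 5.71, 6.18 and 6.09 FPKM in DDC and 0.773, 1.68, 1.36 and 1.12 FPKM in Control. DDC was separate and Control 1 was the lowest library of all. The change was 1.64 ± 0.11 (adjusted p = 1.2e-06), and 67.3% of the gene's exon bases lie opposite exons of Gse1 in GENCODE M21. The libraries are stranded per the labels, and the strand setting of the counting was not given in the sources used here.

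Gins3, another GINS subunit, had 1.81, 1.56 and 1.75 FPKM in R15, 2.72, 2.65, 3.02 and 3.16 FPKM in DDC and 1.30, 1.64, 1.45 and 1.30 FPKM in Control. It moved the least of this role, with a log2 change of 0.68 ± 0.07 (limma adjusted p = 1.6e-05), yet its DDC libraries stayed above the others. Cdc7, the S phase kinase that phosphorylates the MCM ring, had 0.370, 0.614 and 0.397 FPKM in R15, 1.93, 1.93, 1.98 and 2.10 FPKM in DDC and 0.189, 0.277, 0.497 and 0.332 FPKM in Control. Dbf4, its activating subunit, had 0.836, 0.886 and 0.596 FPKM in R15, 3.64, 3.42, 3.24 and 3.21 FPKM in DDC and 0.458, 0.696, 1.08 and 0.596 FPKM in Control. Both were low in R15 and Control, which overlapped, and higher in all DDC libraries. The log2 change was 1.18 ± 0.09 for Cdc7 and 1.37 ± 0.11 for Dbf4 (adjusted p = 2.1e-06 and 2.9e-06). Mcm10, which helps activate and stabilise the helicase, changed by 1.14, Cdc45, a part of the helicase itself, by 1.57, and the GINS subunit gene Gins1 by 1.60.

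Polymerases, clamp and strand joining genes had the lowest median change, 0.81 on the log2 scale. Still, 13 of 13 were called higher in DDC than in Control, against 33.5% of all genes tested. Of the 13, 5 were called with a change of at least 1, against 7.87% of genes. Dscc1 passed the filter only through DDC libraries. Pola1, the catalytic subunit of the primase-bound polymerase alpha, had 3.93, 4.41 and 4.04 FPKM in R15, 5.25, 5.47, 5.40 and 5.38 FPKM in DDC and 3.51, 4.13, 3.80 and 4.09 FPKM in Control. The DDC libraries lay just above the others, and the change was 0.39 ± 0.05 (limma adjusted p = 1.1e-04). Its partner subunit Pola2 changed by 1.01 and the primase subunit gene Prim1 by 0.61. The catalytic subunit genes of the main copying polymerases changed by 0.68 (Pold1, lagging strand) and 1.13 (Pole, leading strand).

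Fen1, the nuclease that trims flaps between Okazaki fragments, had 3.23, 3.80 and 3.42 FPKM in R15, 12.4, 11.3, 12.7 and 13.5 FPKM in DDC and 3.15, 3.43, 4.75 and 3.52 FPKM in Control. DDC libraries were more than 2 times above every other library, and Control 3 was the highest Control library. The log2 change of Fen1 was 1.52 ± 0.10 (adjusted p = 9.4e-07), and 84.2% of its exon bases lie opposite exons of Tmem258 and Gm10143. Lig1, the ligase that seals the fragments, changed by 1.12 ± 0.09 (adjusted p = 2.9e-06).

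Pcna (ENSMUSG00000027342, mm10 chromosome 2, 132249162 to 132253314), the ring-shaped clamp that holds polymerases on DNA, was the most abundant member in DDC. It had 26.2, 28.5 and 27.1 FPKM in R15, 57.9, 60.1, 66.5 and 67.2 FPKM in DDC and 26.6, 30.7, 32.4 and 28.8 FPKM in Control. DDC libraries were well above the rest, and R15 libraries lay in or just below the lower part of the Control range. The change was 1.06 ± 0.07 in DDC against Control and -1.17 ± 0.07 in R15 against DDC (limma adjusted p = 9.2e-07 and 2.0e-06). Reads may be shared with the near-identical copy Pcna-ps2, which averaged 4.61 FPKM in R15, 9.82 FPKM in DDC and 4.57 FPKM in Control. The clamp loader genes changed by 0.41 (Rfc2), 0.76 (Rfc3), 0.81 (Rfc4) and 0.81 (Rfc5). Dscc1, of the alternative loader that works in sister chromatid cohesion, changed by 0.97 on this scale, with mean FPKM 8.10 times as high in DDC as in Control.

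Nucleotide supply genes were called higher in DDC in 5 of 5 cases, against 33.5% of all genes tested. Among the 5, Tk1 passed the filter only through DDC libraries. The median log2 change was 1.27, with ratios between 1.86 and 7.83. Rrm2 (ENSMUSG00000020649, mm10 chromosome 12, 24708241 to 24714146), the small subunit that limits ribonucleotide reductase in S phase, had 1.13, 1.81 and 1.09 FPKM in R15, 12.2, 11.8, 12.8 and 13.8 FPKM in DDC and 1.79, 1.76, 2.25 and 1.50 FPKM in Control. DDC libraries were far above all others, and R15 1 and R15 3 were below all Control libraries. Rrm2 changed by 2.28 ± 0.11 in DDC against Control and -2.56 ± 0.12 in R15 against DDC (limma adjusted p = 2.2e-07 and 6.4e-07), and the second was the largest fall of the 45 on the scale of FPKM + 1.

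Rrm1, the large subunit of the same enzyme, had 10.1, 10.3 and 9.24 FPKM in R15, 24.1, 25.0, 25.3 and 25.7 FPKM in DDC and 8.44, 10.5, 11.1 and 9.22 FPKM in Control. Its DDC libraries were separate, and its change was 1.27 ± 0.07 (adjusted p = 5.3e-07). Tk1, the S phase thymidine kinase, had 0.541, 0.865 and 0.408 FPKM in R15, 5.32, 5.36, 5.90 and 6.16 FPKM in DDC and 0.525, 0.736, 1.05 and 0.593 FPKM in Control. Tyms, thymidylate synthase, had 2.06, 2.16 and 2.09 FPKM in R15, 4.66, 4.44, 4.70 and 4.33 FPKM in DDC and 1.79, 2.21, 2.52 and 2.02 FPKM in Control. Dut, which removes dUTP from the pool, had 5.41, 5.86 and 6.03 FPKM in R15, 8.98, 9.32, 10.2 and 10.0 FPKM in DDC and 4.51, 5.48, 5.77 and 4.90 FPKM in Control. Each of these was higher in all DDC libraries, and R15 and Control overlapped. The log2 change was 1.96 ± 0.11 for Tk1, 0.83 ± 0.07 for Tyms and 0.79 ± 0.07 for Dut (limma adjusted p = 5.4e-07, 4.7e-06 and 6.5e-06).

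The remaining 9 genes were all called higher in DDC than in Control, against 33.5% of all genes tested. Among the 9, Ccne1, Ccne2, Dtl and Clspn passed the filter only through DDC libraries. The median log2 change was 1.33, with ratios from 1.24 (Slbp) to 14.0 (Ccne1). Ccne1, which encodes cyclin E1, had 0.357, 0.312 and 0.221 FPKM in R15, 2.88, 2.40, 3.10 and 3.18 FPKM in DDC and 0.181, 0.182, 0.358 and 0.106 FPKM in Control. Ccne2, which encodes cyclin E2, had 0.322, 0.569 and 0.261 FPKM in R15, 2.11, 1.86, 2.24 and 2.49 FPKM in DDC and 0.219, 0.461, 0.628 and 0.324 FPKM in Control. In R15 and Control both lay under 1 FPKM and overlapped, and in every DDC library both were over 1. The changes were 1.69 ± 0.09 for Ccne1 and 1.18 ± 0.11 for Ccne2 (limma adjusted p = 3.9e-07 and 1.0e-05), and 17.4% of the exon bases of Ccne2 lie opposite exons of Ints8.

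Chaf1a, the large subunit of the chromatin assembly factor that deposits histones behind the fork, had 2.24, 2.34 and 1.76 FPKM in R15, 8.71, 9.14, 10.2 and 9.80 FPKM in DDC and 1.00, 1.75, 2.11 and 1.48 FPKM in Control. Chaf1b, the next subunit of that factor, had 1.85, 1.72 and 1.77 FPKM in R15, 6.74, 6.98, 7.49 and 7.71 FPKM in DDC and 1.58, 1.71, 1.91 and 1.52 FPKM in Control. DDC libraries were separate for both. The change was 2.03 ± 0.13 for Chaf1a and 1.62 ± 0.06 for Chaf1b (limma adjusted p = 7.4e-07 and 9.1e-08), and 52.5% of the exon bases of Chaf1a lie opposite exons of Ubxn6.

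Slbp, which binds the stem-loop of histone mRNAs, had 11.6, 11.9 and 12.0 FPKM in R15, 15.0, 13.9, 15.2 and 14.6 FPKM in DDC and 10.9, 12.3, 12.3 and 12.1 FPKM in Control. It moved the least of the 45, by 0.29 ± 0.05 (adjusted p = 2.9e-04), with DDC still above every other library. The others were Dtl, an adaptor that marks Cdt1 for destruction in S phase (1.33), the checkpoint mediator gene Clspn (1.60), Tipin, of the fork protection complex (1.18), and Ung, the uracil glycosylase gene (1.25).

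**Figure D4:**
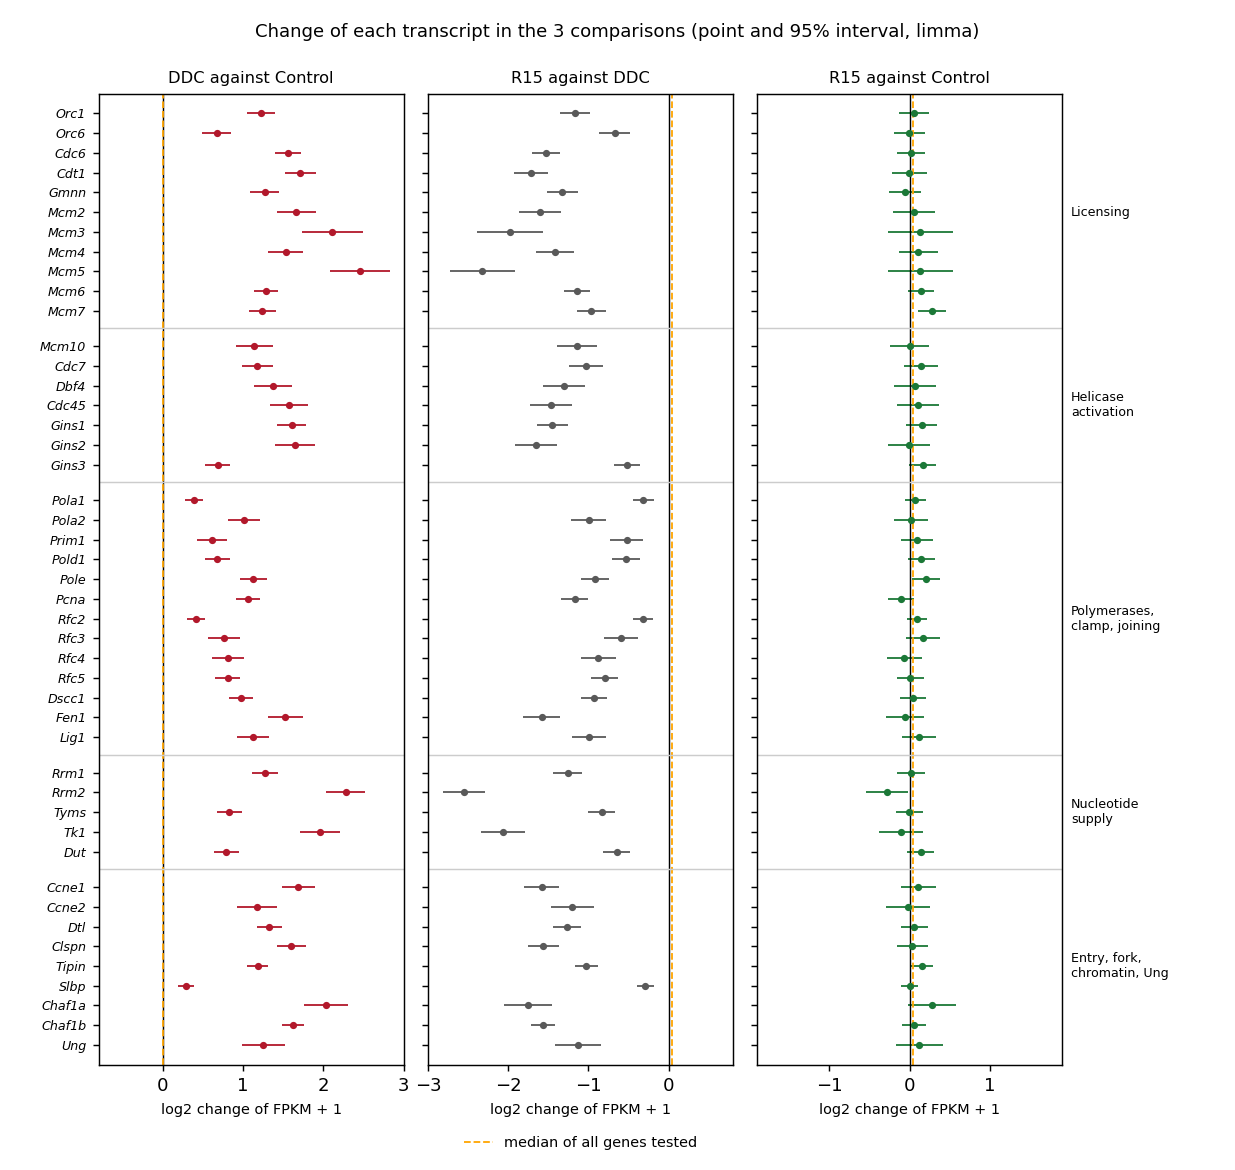
Log2 change of FPKM + 1 with its 95% interval (limma) for the 45 members in DDC against Control, R15 against DDC and R15 against Control, with a dashed line at the median of all genes tested. Points lie above 0 in the first comparison, below 0 in the second and around 0 in the third, with the 3 panels on scales of equal width.

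After 15 days back on chow every member was lower than in DDC. In R15 against DDC, 45 of 45 members were called lower (limma), against 28.8% of genes tested, and 28 of 45 with a log2 change of at least 1 in size, against 5.83% of genes. The R15 libraries lay below all DDC libraries for 45 of 45 members, which was so for 31% of genes. The median log2 change was -1.17 over the members and 0.04 over all genes tested. By role the medians were -1.42 for licensing, -1.31 for helicase activation, -0.88 for polymerases, clamp and strand joining, -1.26 for nucleotide supply and -1.27 for the remaining genes. This comparison shares its DDC libraries with the previous one, and R15 against Control shares libraries with both. Among the 34 members that pass the filter without DDC libraries, 18 were lower by at least 1. The size of the fall was smallest for Slbp (-0.29), Pola1 (-0.32) and Rfc2 (-0.32).

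In R15 against Control no member passed the threshold. By limma 0 of 45 were called higher and 0 lower, against 6.87% of genes called higher and 2.72% called lower, and 0 were called by limma voom on the recovered reads. At an unadjusted p under 0.05 there were 4 members, of which Mcm7 (0.28), Pole (0.20) and Tipin (0.15) were on the higher side and Rrm2 (-0.28) on the lower. The smallest adjusted p was that of Mcm7 (0.0572). R15 libraries lay above all Control libraries for 1 member, Mcm7, against 15% of genes, and below them for 0, against 6.3% of genes. The 95% intervals of the difference reached from -0.54 to 0.58 over the 45 members, and 41 of the 45 intervals lay between -0.5 and 0.5. A p over the threshold does not show that the groups are equal. Differences were above 0 for 32 members and below 0 for 13, with a median of 0.06 against 0.05 over all genes.

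As a share of the gap in mean FPKM between DDC and Control, R15 kept between -7.04% (Pcna) and 19.6% (Gins3), with a median of 2.51%. At least 10% was kept by 9 members, Mcm7, Gins3, Pola1, Prim1, Pold1, Pole, Rfc2, Rfc3 and Dut, none of which passed the limma threshold against Control. Macrophage markers summed to 702 FPKM in R15 2, against 139 and 168 in the other R15 libraries, and R15 2 was the highest R15 library for 25 of 45 members. Whether these go together was not tested.

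Within a group the members tended to be high or low in the same library. Control 3 was the highest Control library for 31 of 45 members and Control 1 the lowest for 34. DDC 4 was the highest DDC library for 25 and DDC 1 the lowest for 26. R15 3 was the lowest R15 library for 24. The summed FPKM of 7 pancreatic acinar markers was the highest of its group in Control 1 (5119), DDC 1 (683) and R15 3 (831). It was also 1340 in Control 2 and 604 in Control 3, which were the lowest for 3 and 0 members. A link between these sums and the members' levels was not tested. The median SD across members was 8.86% of the mean in R15, 6.89% in DDC and 16.0% in Control. The summed FPKM of the 4 proliferation markers was 4.92, 8.34 and 4.29 in R15, 59.1, 61.5, 53.4 and 52.7 in DDC, and 3.71, 6.31, 9.74 and 4.17 in Control. Control 3 and R15 2 were the highest of their groups for these markers too. In DDC the order differed, since DDC 4 had the lowest sum and DDC 1 the second highest.

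Genes that act as a pair did not all change by the same factor. For 7 pairs the log2 ratio of FPKM, with 0.1 FPKM added to each gene, was compared between DDC and Control by an exact 2-sided permutation test over libraries, whose smallest possible p is 0.0286, with adjustment over the 7. Of these, 6 differed and each reached that smallest p (adjusted p = 0.0333). Among the genes paired, Orc1, Tk1, Ccne1, Ccne2, Dbf4 and Cdc7 passed the filter only through DDC libraries. Orc1 over Orc6 and Tk1 over Tyms set such a gene against one that passed without them, so those tests add no support of their own. Ccne2 over Ccne1 and Dbf4 over Cdc7 set such genes against each other, and those tests add none either. Values for R15 are given as a description, without a test.

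Rrm2 over Rrm1 had log2 ratios of -3.05, -2.44 and -2.97 in R15, -0.98, -1.07, -0.98 and -0.89 in DDC and -2.17, -2.51, -2.25 and -2.54 in Control. The small subunit was closer to the large one in every DDC library, by a difference of 1.39 ± 0.10 (SE, DDC minus Control). Tk1 over Tyms had -1.76, -1.23 and -2.11 in R15, 0.19, 0.27, 0.32 and 0.50 in DDC and -1.60, -1.46, -1.19 and -1.61 in Control. The salvage kinase was above the synthase only in DDC libraries, by a difference of 1.78 ± 0.12, or 1.14 with 1 FPKM added. Orc1 over Orc6 had -5.19, -4.79 and -4.99 in R15, -2.78, -3.17, -2.93 and -3.08 in DDC and -5.51, -5.52, -4.97 and -5.22 in Control. Its difference was 2.32 ± 0.16, and it depends on what is added to the low Orc1 values, being 0.56 with 1 FPKM and 3.12 with 0.01 FPKM added.

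Cdt1 over Gmnn had -0.05, 0.10 and -0.25 in R15, 0.39, 0.12, 0.58 and 0.33 in DDC and -0.14, -0.25, -0.21 and 0.07 in Control. The loader gained on its inhibitor in DDC by 0.49 ± 0.12, and every DDC library was above every Control library. Ccne2 over Ccne1 had -0.12, 0.70 and 0.17 in R15, -0.44, -0.36, -0.45 and -0.34 in DDC and 0.18, 0.99, 0.67 and 1.04 in Control. In FPKM the order of the cyclin E genes differed, with Ccne2 the higher in all Control libraries and Ccne1 in all DDC libraries. The difference was -1.12 ± 0.20, or -0.51 with 1 FPKM added. Both genes passed the filter only through DDC libraries. Their Control values rest on few reads, 19 to 66 for Ccne1 and 54 to 152 for Ccne2. Chaf1b over Chaf1a had -0.26, -0.42 and 0.01 in R15, -0.37, -0.38, -0.44 and -0.34 in DDC and 0.61, -0.03, -0.14 and 0.03 in Control. The difference was -0.50 ± 0.17, with overlapping exons at Chaf1a as given above.

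Dbf4 over Cdc7 had 0.99, 0.47 and 0.48 in R15, 0.88, 0.80, 0.68 and 0.59 in DDC and 0.95, 1.08, 0.98 and 0.69 in Control. Kinase and activator ratios overlapped between groups, with a difference of -0.19 ± 0.11 (exact 2-sided permutation p = 0.143, adjusted p = 0.143). The difference was 0.19 with 1 FPKM added, so its sign is not settled by these values.

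**Figure D5:**
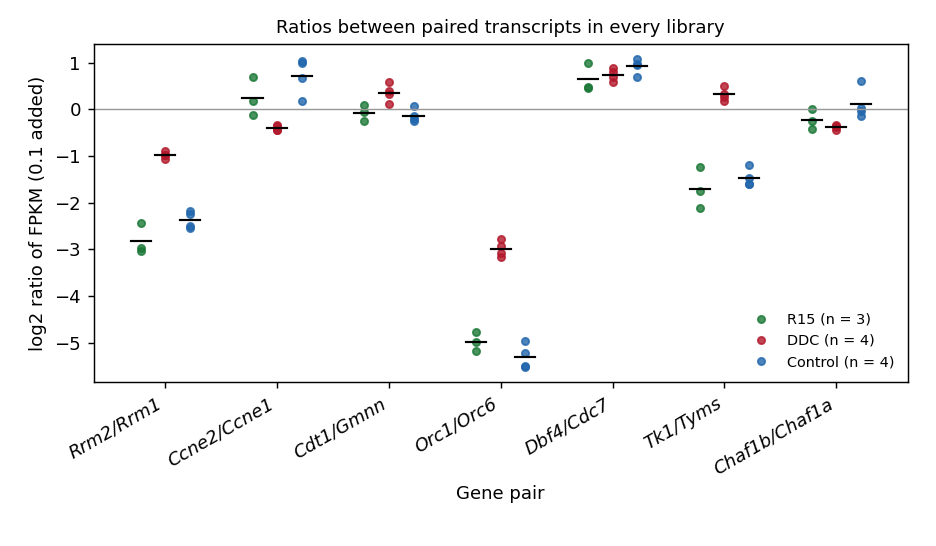
Log2 ratio of FPKM (0.1 FPKM added to each gene) for 7 gene pairs, with 1 point per library and a bar at each group's mean (green, R15; red, DDC; blue, Control). Red and blue points are apart for 6 pairs and overlap for Dbf4 over Cdc7.

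Of 50 other genes of DNA replication, 34 were called higher in DDC than in Control, 2 lower and 14 not, with a median log2 change of 0.40, against 33.5% of all genes called higher. Chtf18, Ticrr, Recql4, Dna2, Asf1b and Mms22l passed the filter only through DDC libraries, which favours genes that are higher in DDC. Of the other 44 genes 28 were called higher, with a median of 0.34. The largest changes on the scale of FPKM + 1 were those of Ccna2, the S and G2 phase cyclin (2.65 ± 0.25), the nuclease-helicase gene Dna2 (1.83 ± 0.13), the histone chaperone gene Asf1b (1.82 ± 0.15) and Pole2, a subunit of polymerase epsilon (1.52 ± 0.11). The lowest were Rrm2b (-0.43 ± 0.05), Asf1a (-0.18 ± 0.08), Chtf8 (-0.15 ± 0.05) and Top1 (-0.10 ± 0.06), of which Rrm2b and Chtf8 passed the threshold. Rrm2b encodes the p53-induced small subunit of ribonucleotide reductase and averaged 5.30 ± 0.267 FPKM in R15, 3.58 ± 0.110 FPKM in DDC and 5.17 ± 0.353 FPKM in Control (SD, n = 3, 4 and 4). Rrm2, its S phase counterpart among the members, moved the other way. Asf1a and Asf1b encode variants of one histone chaperone, and the call was for Asf1b alone. In R15 against DDC 33 of the 50 were called lower, against 28.8% of all genes, 6 higher and 11 not. Without the same 6 genes, 27 of 44 were called lower. In R15 against Control 2 of the 50 were called higher, against 6.87% of all genes, and 0 lower. They were Rfc1, the large subunit of the clamp loader (0.15 ± 0.04, limma adjusted p = 0.0363), and Donson, a helicase assembly factor (0.22 ± 0.06, limma adjusted p = 0.0384). All 50 were tested, and the list was drawn up with earlier results of these data known.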

How the data were processed

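The authors deposited 1 table of FPKM values per gene and library (reads scaled to gene length and library total), and 0 columns were left unmapped. The genome build is mm10, per the submitters' processing notes; the aligner, the counting tool and its strand setting were not given in the sources used here. Members and gene lists were chosen with earlier results of these data known. A gene entered the test with an FPKM of 1 or more in 3 or more libraries (15264 genes). Values were compared on log2(FPKM + 1), which understates changes of low genes, with limma 3.58.1 (R 4.3.3, eBayes with trend), the 11 libraries in 1 fit, 2-sided, with Benjamini-Hochberg adjustment over all genes tested and a threshold of 0.05. The test was checked on simulated data with known changes, where it recovered most but not all of them at the larger folds; the recovery asked of it was lowered after its first run, with the fit unchanged. FPKM times gene length + 1 base gave whole multiples of the smallest value per library for 100% of values within 0.001, and these whole reads served for depth and for limma voom. Values in every library are given for the largest and smallest change in each role, members of 7 ratios, Mcm2 to Mcm7, Pcna and Cdc6. Alternatives were other pseudocounts, filters and scalings, fewer groups in the fit, a replicate block and leaving out each library; limma voom, the filter without DDC libraries, leaving out 5 libraries and adding Pcna-ps2 to Pcna were chosen after seeing the data. Gene overlaps are from GENCODE M21, where 37 of 45 members had the deposited start and end. Over 10% of exon bases lay opposite exons of other genes in 8 members. Besides Gins2, Fen1, Ccne2 and Chaf1a these were Rfc2 (15.1%), Rfc4 (12.7%), Orc1 (10.8%) and Rfc5 (10.7%).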

Additional observations from a re-analysis of the deposited data

Results flagged for a closer look

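In 5 of 104 groups of 4 libraries checked (each member and each ratio, in DDC and in Control), 1 library stood far from the others by Dixon's criterion, which chance alone does in about 1 in 20 groups. All 5 were in Control. Control 3 was the high library for Cdt1 (4.46 FPKM, others 3.94 to 3.98), Tipin (7.86 FPKM, others 7.19 to 7.23) and Ung (2.72 FPKM, others 1.51 to 1.64). Control 1 was the low library for Mcm7 (8.79 FPKM, others 10.8 to 11.1) and Slbp (10.9 FPKM, others 12.1 to 12.3).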

How the results depend on the processing

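The counts were 45 members higher in DDC than in Control and 45 lower in R15 than in DDC. They were the same under every alternative in which the 45 were tested, except that a log2 change of at least 1 left 32 and 28. The fit without 5 libraries is not counted here, since it leaves 1 Control library. A filter at FPKM 5 tested 33 members and called 33 in both comparisons. Of all 10782 genes tested in that way, 3797 were called higher in DDC than in Control and 3424 lower in R15 than in DDC. In R15 against Control, quantile normalization called 1 member lower, Rrm2 (-0.37, limma adjusted p = 0.0482). Leaving out each library gave 0 to 1 member called higher: Pole without Control replicate 1 (0.28), Mcm7 without Control replicate 2 (0.31) and Tipin without R15 replicate 2 (0.23). With the replicate number as a block the counts were 45, 45, 0 and 0, and the libraries share only a number: the correlations of deviations of same-numbered libraries ran from -0.282 to 0.30, with 3 of 10 pairs over 0.1. Of the differences in R15 against Control that were not called, up to 11 changed sign in 1 setting. The Dbf4 to Cdc7 difference was 0.19 with 1 FPKM added. Over all genes tested, rescaling to one total moved the median of R15 against DDC by 0.10, with 6172 genes higher and 3305 lower, against 5099 and 4397. R15 against Control split into 622 higher and 804 lower under median-of-ratios scaling, 594 and 468 under quantile normalization and 1048 and 415 as reported. Members under 1 FPKM in R15 and Control rest on few reads, which limits their ratios.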
